A study of Mus musculus with 6 samples.

Results

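The genes described here encode proteins of the lysosome, the acidic organelle in which cells break down proteins, sugar chains and lipids. They were chosen by name as lysosomal hydrolases and membrane proteins, 37 genes in all. The rule uses no measured value, but earlier results of these data were known when the genes were chosen. Every probe set whose gene symbol was one of these names was taken. This gave 77 probe sets for 36 of the genes, out of 45101 probe sets and 18193 named genes on the array, while Cd63, a tetraspanin, is not analysed here. By role they are 11 cathepsins, 2 other proteases, 11 enzymes that act on sugar chains, of which Ids is a sulfatase and the others glycosidases, 5 genes of lipid breakdown, 7 membrane and proton pump proteins, and the regulator Tfeb.

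RNA came from C3H10T1/2, a line of mouse mesenchymal cells grown in culture. One group of 3 samples had 50 ng/ml of BMP4, a secreted bone morphogenetic protein, in the medium during proliferation; the other group of 3 was grown the same way without it. Both were harvested past confluence, and each sample was read on 1 single-colour array. The series asked which genes BMP4 regulates as these cells commit to the adipocyte lineage. Both groups are a single cell line, and the labels do not say whether the replicates were separate cultures.

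Lysosomal hydrolases are made in the endoplasmic reticulum, tagged with mannose 6-phosphate in the Golgi and carried to the lysosome, where a proton pump keeps the lumen acidic. Cathepsins cut proteins, glycosidases and sulfatases take sugar chains apart one unit at a time, and lipases, ceramidase and sphingomyelinase act on lipids with the help of saposins. The transcription factor TFEB binds E-box elements in the promoters of many of these genes and raises their expression together, which is why the family is often read as one programme. In adipose cells lysosomal acid lipase also frees fatty acids from lipid taken up with lipoproteins or by autophagy.

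The E-box CACGTG, the core of the element TFEB binds, was searched in the RefSeq promoter windows of build GRCm38.p6, which run from 250 bases before to 50 after each gene's start. The motif reads the same on both strands. Of the 37 members 34 matched a window by symbol, and 12 of them (35.3%) held CACGTG, against 8.09% of all 27025 genes in the table. The longer form TCACGTG, searched on both strands and contained in part of the same matches, was in 10 members (29.4%) against 4.29% of all genes. GGCGCC, a GC-rich element that BMP-activated Smads can bind, was in 7 members (20.6%) against 13.4% of all genes. A match describes the letters and is not evidence of binding, and a window without one says nothing of the factor.

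The 3 windows below belong to the members whose changes held up best, with CACGTG in capitals. Gla holds it 2 times, and Lipa and Ctso do not hold it.
Gla, chrX:134600956-134601255 on the minus strand: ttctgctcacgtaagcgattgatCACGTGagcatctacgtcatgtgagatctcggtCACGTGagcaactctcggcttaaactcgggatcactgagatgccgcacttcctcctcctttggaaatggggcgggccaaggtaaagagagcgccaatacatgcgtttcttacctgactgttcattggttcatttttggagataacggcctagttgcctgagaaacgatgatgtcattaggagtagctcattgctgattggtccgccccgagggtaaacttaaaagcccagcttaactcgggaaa
Lipa, chr19:34527425-34527724 on the minus strand: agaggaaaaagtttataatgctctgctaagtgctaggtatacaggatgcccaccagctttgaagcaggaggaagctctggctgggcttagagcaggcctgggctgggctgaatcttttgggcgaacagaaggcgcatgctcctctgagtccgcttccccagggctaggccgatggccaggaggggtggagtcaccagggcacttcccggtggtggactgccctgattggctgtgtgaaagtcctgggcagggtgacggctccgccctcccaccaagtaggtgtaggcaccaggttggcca
Ctso, chr3:81932351-81932650 on the plus strand: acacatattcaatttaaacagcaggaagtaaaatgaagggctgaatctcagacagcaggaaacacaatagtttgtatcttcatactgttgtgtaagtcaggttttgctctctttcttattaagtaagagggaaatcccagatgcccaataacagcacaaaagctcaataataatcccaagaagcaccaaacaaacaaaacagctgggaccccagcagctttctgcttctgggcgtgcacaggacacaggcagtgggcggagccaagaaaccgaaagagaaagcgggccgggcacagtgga

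The other 11 members with CACGTG are shown by the motif in capitals and up to 10 bases on each side, to set the shared element beside genes whose own signals are described next. The number after each name is the distance in bases of the first C from the gene's start, negative before it.
Atp6v0d1 (-3): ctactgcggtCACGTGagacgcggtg
Ctsa (-12): agcaaactgtCACGTGatgcagatgc
Ctsa (5): tgcagatgctCACGTGaccagagcta
Ctsd (-245): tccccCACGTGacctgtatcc
Ctsd (-98): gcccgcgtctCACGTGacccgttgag
Ctsf (-79): ccccgtggtcCACGTGcctcgcgtaa
Ctsl (-236): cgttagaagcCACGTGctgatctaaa
Gaa (-140): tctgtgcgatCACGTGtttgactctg
Glb1 (-48): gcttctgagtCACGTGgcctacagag
Lamp1 (-61): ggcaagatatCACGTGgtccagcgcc
Lamp1 (-45): gtccagcgccCACGTGatgccgactg
Lamp1 (-28): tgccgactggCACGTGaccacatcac
Lamp1 (-15): gtgaccacatCACGTGcggaacggag
Lgmn (-49): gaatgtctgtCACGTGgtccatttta
Mcoln1 (-71): tcgcgcttgtCACGTGttcagttcag
Mcoln1 (-45): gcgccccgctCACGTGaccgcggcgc
Naglu (-73): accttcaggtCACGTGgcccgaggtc
Lamp1 held 4 copies within its last 61 bases before the start, and Ctsa, Ctsd and Mcoln1 held 2 each.

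Most lysosomal genes did not pass the test after BMP4, and 5 single enzymes did. Of these, Ids passed under 11 and Idua under 9 of 18 alternative fits. Of the 36 genes, 34 had a probe set bright enough to be tested, meaning above the 40th percentile of mean signal, and each gene was represented by its brightest one. In the limma fit over all probe sets, at a Benjamini-Hochberg adjusted p of 0.05, Gla, Lipa and Idua were higher and Ctso and Ids were lower. That is 5 of 34 genes, or 14.7%, beside 10.7% of all 12966 genes tested (5.03% higher and 5.66% lower). The share of all genes with an unadjusted p under 0.05 was not computed. Counts given below at that threshold therefore stand without it and cannot be read as high or low. The median log2 change of the members was 0.05, against 0.03 over all genes tested. The 3 BMP4 arrays lay wholly on one side of the 3 control arrays for 9 members (26.5%), against 30.7% of all genes, so separation of the groups was about as common here as elsewhere. In bulk RNA, a change in how many cells express a gene and a change in its RNA per cell cannot be told apart.

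For 28 of the 29 members that did not pass, the 95% interval of the log2 change on the brightest probe set lay between -0.50 and 0.50. The exception was Ctsk. For 10 of the 29 it lay between -0.25 and 0.25. The wider bound would also hold the changes called for Lipa (0.44) and Ids (-0.31), so it does not show that a gene was unchanged. The wider bound holds for the brightest probe set only. Of 24 further tested probe sets of the members that did not pass, 9 had an interval reaching beyond it, in Ctsa, Ctsb, Ctsf, Lamp2, Mcoln1, Neu1, Ppt1 and Scarb2. Of the 34 members 24 had a log2 change above 0, beside 55.1% of all genes tested. With each array centred on its median 12 did. That setting moved the median over all probe sets tested from 0.03 to -0.07 and that of the members from 0.05 to -0.05. The sign thus depends on the scaling of the arrays, so no direction can be given for the family.

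**Figure D1:**
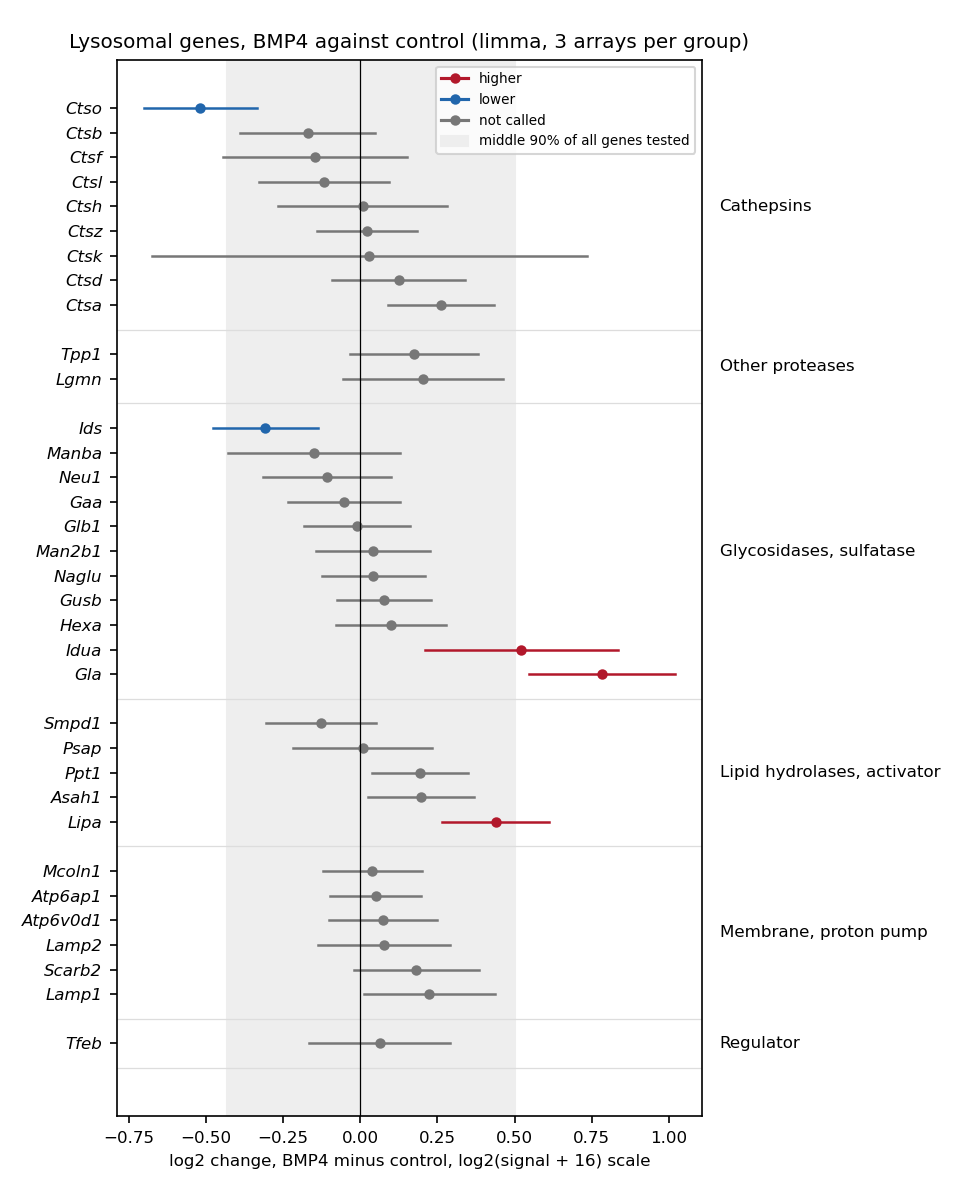
Log2 change (BMP4 minus control, on the log2(signal + 16) scale, horizontal axis) of the 34 members tested, by role, with 95% limma intervals from 3 arrays per group; the band holds the middle 90% of all genes tested. Gla, Idua and Lipa stand to the right of 0, Ctso and Ids to the left, and most intervals of the other members cross 0.

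Among the cathepsins 1 of 9 tested genes fell and 0 rose by limma, beside 5.66% lower and 5.03% higher of all genes tested. At an unadjusted p under 0.05 there was 1 each, and their median log2 change was 0.01. Ctso, cathepsin O, a cysteine protease of the papain family, had signals of 476, 495 and 459 in the control samples and 365, 324 and 299 with BMP4. All 3 BMP4 samples were below all 3 controls, with means of 477 ± 18.1 and 329 ± 33.2 (SD, n = 3). The log2 change was -0.52 ± 0.08 (SE; limma, adjusted p = 0.00255). A dimmer Ctso probe set went from 42.3, 42.8 and 42.9 to 33.1, 26.7 and 30.4, also without overlap, but did not pass (log2 -0.35, limma adjusted p = 0.249).

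Ctsb, cathepsin B, an abundant cysteine protease, had a log2 change below 0 on each tested probe set, but only its dim ones passed the test. On the brightest the controls read 3776, 4546 and 4795 and the BMP4 samples 3762, 4116 and 3725. These ranges overlap, and the log2 change was -0.17 (95% interval -0.39 to 0.05, limma adjusted p = 0.348). A second bright probe set gave -0.15 (adjusted p = 0.329). The brighter of 2 dim probe sets read 460, 482 and 463 without BMP4 and 357, 353 and 319 with it. There the groups were apart and the log2 change was -0.43 ± 0.07 (SE; limma, adjusted p = 0.0034). The dimmer of them fell by 0.31 on the log2 scale (limma adjusted p = 0.0397), a call lost when BMP4 replicate 1 (0.0865) or 3 (0.115) or control replicate 1 (0.0992), 2 (0.0867) or 3 (0.127) was left out, and under 5 other alternatives. Quantile normalization and cyclic loess gave the brightest probe set adjusted p of 0.00932 and 0.0175, and the mean over the probe sets of Ctsb gave 0.0369.

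Ctsa, the serine carboxypeptidase that also shields galactosidase and neuraminidase in a complex, lay just outside the test. Its signals were 1621, 1697 and 1815 without BMP4 and 1888, 2168 and 2114 with it. The groups did not overlap, and the log2 change was 0.26 ± 0.08 (SE; limma, adjusted p = 0.0628). It passed under 6 of 18 alternatives, adjusted p ranging from 0.0149 to 0.367, and a dimmer probe set gave 0.37 (adjusted p = 0.102).

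The remaining cathepsins had intervals around 0. Ctsd, the main aspartic protease of the lysosome, had means of 3105 ± 270 and 3390 ± 355 (SD, n = 3). The log2 change was 0.12 (95% interval -0.09 to 0.34). Ctsl, a cysteine endopeptidase, had a change of -0.12 (-0.33 to 0.09), and Ctsz, a cysteine carboxypeptidase, 0.02 (-0.14 to 0.18), with -0.06 and 0.15 on its other probe sets. Their samples overlapped between the groups on each of these probe sets. Ctsf, a further cysteine cathepsin, gave -0.15 (-0.45 to 0.15) on the brighter of 2 probe sets and 0.63 (limma adjusted p = 0.303) on the other, where control replicate 2 read 9.1. Ctsh, an aminopeptidase, gave 0.01 (-0.27 to 0.28), and 0.01 on another probe set. Ctsk, the collagen-cutting cathepsin of osteoclasts, read 53.6, 24.5 and 42.4 without BMP4 and 68.6, 17.5 and 45.7 with it. Its interval, -0.68 to 0.74, was the widest among the brightest probe sets of the members, and 2 of its readings were under 29.1, the highest signal of a bacterial control probe set and so the background level used here. Ctsc, which activates serine proteases of immune cells, and Ctss, the cathepsin of antigen-presenting cells, were not above that level on any array and were not tested.

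The other 2 proteases did not pass, nor did either have an unadjusted limma p under 0.05. Lgmn, legumain, which cuts after asparagine, read 489, 534 and 577 without BMP4 and 497, 702 and 666 with it, a log2 change of 0.20 (95% interval -0.06 to 0.46, limma adjusted p = 0.344). Without BMP4 replicate 1, the low one of its group, Lgmn gave 0.35 (adjusted p = 0.0327). Tpp1, which removes tripeptides from protein ends, gave 0.17 (-0.03 to 0.38), and 0.09 on a dimmer probe set.

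The glycosidases and the sulfatase held both the largest rise and a fall, 2 of 11 genes higher and 1 lower with a median of 0.04. Of all genes tested 5.03% were higher and 5.66% lower. Gla, alpha-galactosidase A, which removes terminal galactose from globotriaosylceramide, read 157, 146 and 126 in the control samples and 267, 230 and 277 with BMP4. The lowest BMP4 sample was far above the highest control. Means were 143 ± 15.6 and 258 ± 24.8 (SD, n = 3). The log2 change was 0.78 ± 0.11 (SE; limma, adjusted p = 0.000911). The second Gla probe set read 71.5, 41.4 and 9.3 without BMP4 and 141, 139 and 140 with it. It rose by 1.63 ± 0.35 on the log2 scale (SE; limma, adjusted p = 0.0129), though control replicate 3 was under the background level, so the size differs between probe sets while the direction is shared. Gla passed under all 18 alternatives (limma adjusted p from 0.000672 to 0.0131), of which 1 is the mean over its probe sets and the rest are on the first. The second probe set lost its call without the filter (0.0535) or the intensity trend (0.0726).

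Idua, alpha-L-iduronidase, and Ids, iduronate 2-sulfatase, act in turn on dermatan and heparan sulfate, and moved in opposite directions. Idua read 178, 190 and 164 without BMP4 and 299, 300.1 and 198 with it. BMP4 replicate 3 lay just above the highest control, and the log2 change was 0.52 ± 0.14 (SE; limma, adjusted p = 0.0445). The other Idua probe set was level at 148, 143 and 141 against 143, 143 and 142 (log2 -0.01, 95% interval -0.22 to 0.20). The rise of Idua was not past the test when BMP4 replicate 1 (0.134) or 2 (0.147) or control replicate 1 (0.119), 2 (0.0774) or 3 (0.132) was left out. It was also lost without the filter (0.107), without the intensity trend (0.136), with median centring (0.0732) and over the mean of its probe sets (0.138).

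Ids read 2004, 2315 and 2000.1 without BMP4 and 1675, 1760 and 1648 with it on its brightest probe set. The groups did not overlap, and the log2 change was -0.31 ± 0.08 (SE; limma, adjusted p = 0.0302). On a dimmer one the readings were 277, 281 and 253 against 152, 164 and 128, a difference of -0.81 ± 0.10 on the log2 scale (SE; limma, adjusted p = 0.000546). This second probe set passed under all 17 alternatives run on it. The 2 others tested gave -0.13 (limma adjusted p = 0.678) and 0.09 (adjusted p = 0.803), with overlapping groups. The call on the brightest probe set was lost without BMP4 replicate 1 (0.0836), 2 (0.0597) or 3 (0.0916) or control replicate 2 (0.133), and also without the filter (0.0671) or the trend (0.126) and over the mean of the probe sets (0.0897).

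The other 8 glycosidases had log2 changes between -0.15 and 0.10 and overlapping groups on their brightest probe sets. They were the alpha-glucosidase Gaa, which degrades glycogen (-0.05), the beta-galactosidase Glb1 (-0.01), the beta-glucuronidase Gusb (0.08) and the hexosaminidase subunit Hexa (0.10). The mannosidases Man2b1 and Manba, which trim glycoprotein sugar chains, gave 0.04 and -0.15. Naglu, which acts on heparan sulfate, gave 0.04, and the sialidase Neu1 gave -0.11. Each of these 8 had a 95% interval inside -0.50 to 0.50 there, the widest being that of Manba (-0.43 to 0.13). Further probe sets, not past the test, gave 0.04 for Gaa and -0.03 for Gusb, both opposite in sign to the brightest. Those of Neu1 were dim and went both ways, at 0.31 (95% interval -0.14 to 0.76) and -0.57 (-1.23 to 0.09), with overlapping groups on each.

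Of the 5 lipid genes 1 rose and 0 fell, beside 5.03% higher and 5.66% lower of all genes tested, and their median was 0.19. At an unadjusted limma p under 0.05 there were 3 higher and 0 lower, a count with no share of all genes beside it. Lipa, lysosomal acid lipase, which splits cholesteryl esters and triglycerides, read 1250, 1342 and 1312 without BMP4 and 1623, 1752 and 1949 with it. All BMP4 samples were above all controls, with means of 1301 ± 46.8 and 1774 ± 164 (SD, n = 3). The log2 change was 0.44 ± 0.08 (SE; limma, adjusted p = 0.00484). Its 2 other probe sets gave 0.46 (adjusted p = 0.00429) and 0.41 (adjusted p = 0.0104), so all 3 agreed in direction and size. The brightest was not past the test on median-centred arrays (0.0635) or without the trend (0.0536), and the one at 0.41 was not past it in those settings (0.0725 and 0.0748) or without control replicate 2 (0.0506).

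The remaining lipid genes did not pass. The acid ceramidase Asah1 read 1834, 1935 and 1974 without BMP4 and 2358, 2240 and 2005 with it. The groups were apart by a narrow margin, and the log2 change was 0.20 (95% interval 0.03 to 0.37, limma adjusted p = 0.159). Ppt1, which removes palmitate from proteins, read 722, 699 and 690 against 876, 760 and 788, again without overlap (0.19, 0.04 to 0.35, adjusted p = 0.131), and its 3 other probe sets gave 0.01, 0.05 and 0.13. The acid sphingomyelinase Smpd1 gave -0.13 (-0.31 to 0.05). Its dimmer probe set had the opposite sign, with 95.1, 91.1 and 86.8 without BMP4 and 103.5, 103.7 and 118.7 with it (0.22, -0.04 to 0.48, limma adjusted p = 0.314). Psap, the precursor of the saposins, gave 0.01 (-0.22 to 0.23), and -0.08 on another probe set.

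**Figure D2:**
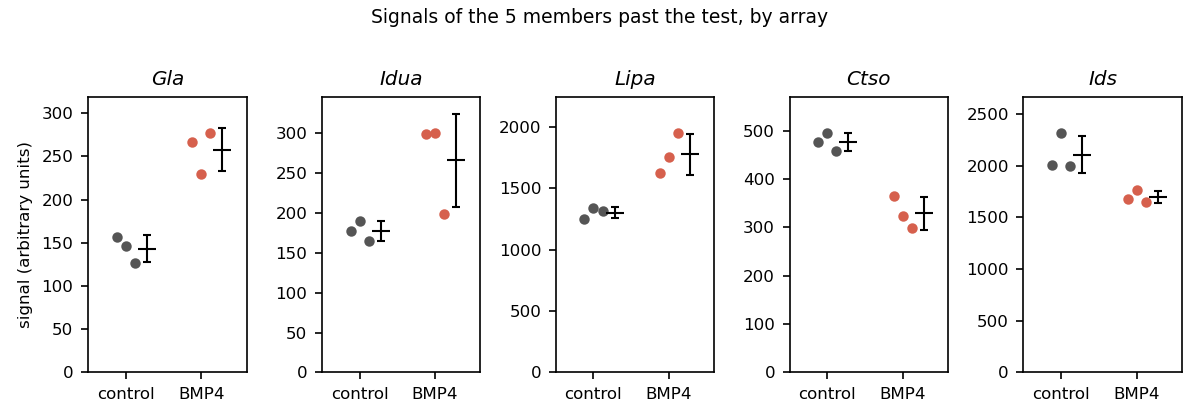
Signal (arbitrary units, linear axis from 0) of the 5 members past the test on their brightest probe set, with 1 point per array and the mean and SD of 3 arrays beside it. In each panel the 3 BMP4 arrays lie on one side of the 3 controls, most narrowly for Idua, where the lowest BMP4 array reads 198 and the highest control 190.

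The membrane and proton pump genes had 0 of 6 tested genes higher and 0 lower by limma on their brightest probe sets. Of all genes tested 5.03% were higher and 5.66% lower, so 0 of 6 is no result about this class. At an unadjusted p under 0.05 there was 1, Lamp1. The log2 changes of the 6 ran from 0.04 to 0.22 as deposited, all above 0. With each array centred on its median 2 of 6 were above 0, and the median over all probe sets tested moved from 0.03 to -0.07. Lamp1, a heavily glycosylated protein that lines the lysosomal membrane, read 4425, 5121 and 5345 without BMP4 and 5903, 6077 and 5376 with it. The lowest BMP4 sample was just above the highest control (log2 0.22, 95% interval 0.01 to 0.44, limma adjusted p = 0.2). Lamp2, its relative with splice forms used in autophagy, had 4 tested probe sets at 0.08, 0.03, 0.22 and -0.31, none past the test. On the last of these, controls read 3408, 2919 and 3281 and BMP4 samples 2165.5, 2911 and 2711, apart but barely, with an adjusted p of 0.118.

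Scarb2, the membrane receptor that carries glucocerebrosidase to the lysosome, differed between its probe sets. On the brighter one it read 1371, 1445 and 1501 without BMP4 and 1422, 1673 and 1831 with it, overlapping groups with a log2 change of 0.18 (95% interval -0.02 to 0.38, limma adjusted p = 0.272). On the dimmer one it read 280, 279 and 262 against 388, 401 and 524. There the groups were well apart, and the log2 change was 0.63 ± 0.11 (SE; limma, adjusted p = 0.00349), a call kept under all 17 alternatives run on it. Mcoln1, the lysosomal calcium channel, gave 0.04, with -0.02 and 0.12 on dimmer probe sets. The proton pump subunits Atp6v0d1 and Atp6ap1 gave 0.07 and 0.05, and on the brightest probe sets these 3 genes had intervals inside -0.13 to 0.25.

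Tfeb itself did not differ beyond the spread. It read 128, 142 and 126 without BMP4 and 133, 136 and 147 with it, a log2 change of 0.06 (95% interval -0.17 to 0.29, limma adjusted p = 0.773). Of the 12 tested members whose promoter window holds CACGTG, shown in the sequences above, 1 was called higher (Gla) and 0 lower, with a median change of 0.06. Of the 19 tested members with a window and no CACGTG, 2 were higher and 2 lower, with a median of 0.05. Lamp1, with 4 copies, gave 0.22, and Glb1 and Naglu, with 1 each, gave -0.01 and 0.04. Over all genes tested 5.03% were higher and 5.66% lower, with a median of 0.03. These counts describe the members with and without CACGTG, and the difference between those 2 sets was not tested.

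Several genes thus had probe sets that disagreed. For 20 members more than 1 probe set was tested, and of the 32 further probe sets 21 had the sign of the brightest one. For the 5 called genes 4 of 8 further probe sets passed in the same direction and 0 in the opposite. In 3 cases a further probe set passed where the brightest did not, 2 for Ctsb and 1 for Scarb2. Over all tested probe sets of the members 12 of 66 were called (7 higher and 5 lower, 18.2%), beside 9.12% of all 27022 (4.20% higher and 4.91% lower). Probe sets of 1 gene share their RNA and are not replicates, so this share counts Lipa 3 times and Gla, Ids and Ctsb 2 times each.

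**Figure D3:**
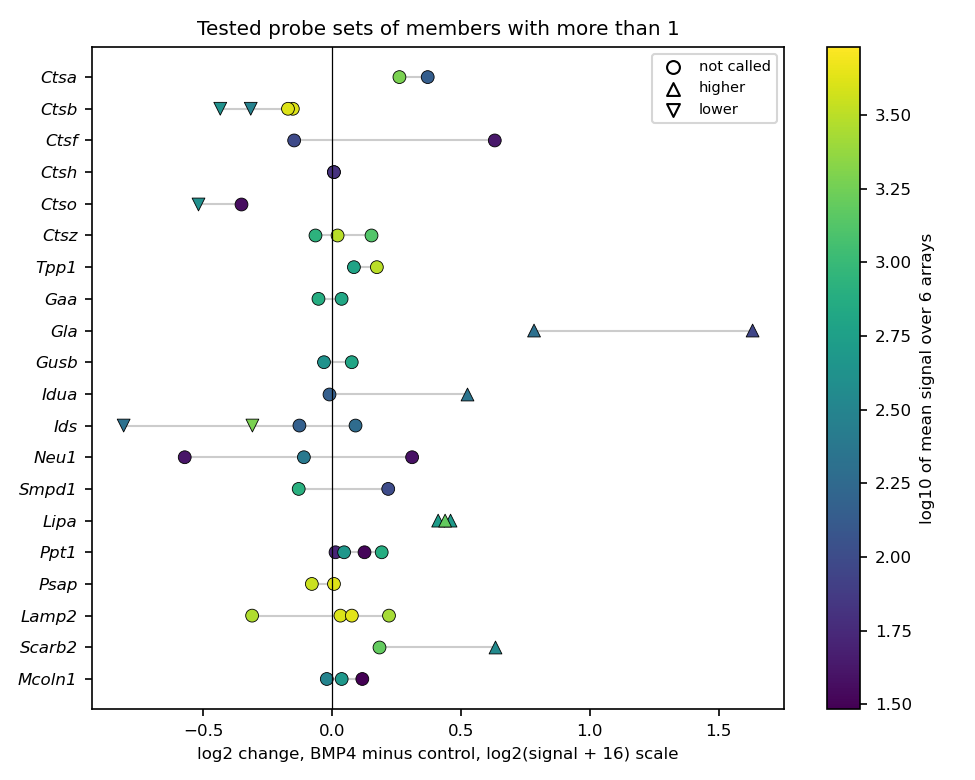
Log2 change (horizontal axis, BMP4 minus control) of every tested probe set of the 20 members that have more than 1, coloured by log10 of the mean signal over 6 arrays, with triangles for those past the test. The 3 Lipa points coincide, the 2 Gla points share a direction at 0.78 and 1.63, and those of Ids and Idua spread from a clear change to about 0.

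Further genes of the lysosome were taken from lists of 113 names. Of 100 tested 3 rose and 3 fell, beside 5.03% higher and 5.66% lower of all genes tested, and their median log2 change was 0.02. Among 24 further hydrolases and activators 1 rose, Ctse, the aspartic protease cathepsin E, which read 220, 222 and 206 without BMP4 and 302, 361 and 408 with it. Its groups were apart, and the log2 change was 0.68 ± 0.10 (SE; limma, adjusted p = 0.00197), against 0.28 (adjusted p = 0.373) on a dimmer probe set. In the same list 1 fell, Arsb, the sulfatase of dermatan and chondroitin sulfate, from 1361, 1410 and 1240 to 923, 1002 and 917. That is a difference of -0.49 ± 0.07 on the log2 scale (SE; limma, adjusted p = 0.0015), and its 2 dimmer probe sets gave -0.35 (adjusted p = 0.0596) and -0.14 (adjusted p = 0.707).

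Of 14 further subunits of the proton pump 2 rose and 0 fell, beside 5.03% higher and 5.66% lower of all genes tested. At an unadjusted limma p under 0.05 there were 5 higher and 0 lower, against 3 and 3 of the 24 further hydrolases and activators. The 2 that rose were Atp6v1a, the catalytic subunit (log2 0.29, limma adjusted p = 0.0176), and Atp6v1d, a subunit of the rotor stalk (0.31, adjusted p = 0.0357). A second Atp6v1a probe set gave 0.31 (adjusted p = 0.0196), and 2 of Atp6v1d gave 0.08 and 0.18, not past the test. Both calls were lost with median centring (0.2 and 0.153) and without the intensity trend (0.0992 and 0.146), and both without control replicate 2 (0.0626 and 0.0932). Atp6v1a was also lost without BMP4 replicate 2 (0.0707), and Atp6v1d when BMP4 replicate 1 (0.105) or 3 (0.0521) or control replicate 1 (0.11) or 3 (0.0564) was left out. Atp6v1d was lost as well without the filter (0.0774) and over the mean of its probe sets (0.0827).

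The next 2 lists also stand beside 5.03% higher and 5.66% lower of all genes tested. Of 13 genes that sort proteins to the lysosome 0 rose and 1 fell, with 2 higher and 2 lower at an unadjusted limma p under 0.05. The 1 that fell was Igf2r, the large receptor for mannose 6-phosphate (-0.31, limma adjusted p = 0.0189), with -0.15 (adjusted p = 0.396) on another probe set. Of 16 further membrane proteins 0 rose and 1 fell, with 3 higher and 2 lower at an unadjusted limma p under 0.05. The 1 that fell was Ostm1, the partner of the chloride transporter of the lysosome (-0.34, limma adjusted p = 0.02). Laptm4b, a further membrane protein, gave -0.14 (adjusted p = 0.401) on its brightest probe set, while both others were lower (-0.36 and -0.35, limma adjusted p = 0.0209 and 0.0141). Without the intensity trend neither Igf2r nor Ostm1 passed (0.108 and 0.0993), and over the mean of its probe sets Igf2r did not (0.074). The call of Igf2r was lost when BMP4 replicate 1 (0.0546) or 3 (0.067) or control replicate 2 (0.0767) or 3 (0.0687) was left out. That of Ostm1 was lost when BMP4 replicate 2 (0.0626) or 3 (0.063) or control replicate 1 (0.0716) or 2 (0.0938) was left out.

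In the other lists 0 genes were called by limma on their brightest probe sets, beside 10.7% of all genes tested. These were 13 regulators and nutrient sensors, 18 autophagy genes and 2 cathepsin inhibitors tested. At an unadjusted p under 0.05 there were 4, 1 and 1. The gene of smallest p in each was Rraga, a GTPase that recruits mTORC1 to the lysosome (log2 0.52, limma adjusted p = 0.0719), Gabarapl1, which coats autophagosomes (-0.19, adjusted p = 0.216), and Cstb, the cathepsin inhibitor cystatin B (0.27, adjusted p = 0.0783). Another Cstb probe set gave 0.29 at an adjusted p of 0.0499, and another of Gabarapl1 fell by 0.38 (limma adjusted p = 0.0239). Each of the 3 genes passed on its brightest probe set or their mean under 2 of 18 alternatives. For Rraga these were leaving out control replicate 1 (0.67, adjusted p = 0.0391) and the 60th percentile filter (0.0498), and without control replicate 3 it gave 0.31 (0.145). For Cstb they were quantile normalization (0.0137) and cyclic loess (0.0221), and for Gabarapl1 leaving out control replicate 1 (0.0461) and the mean over its probe sets (0.0298).

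**Figure D4:**
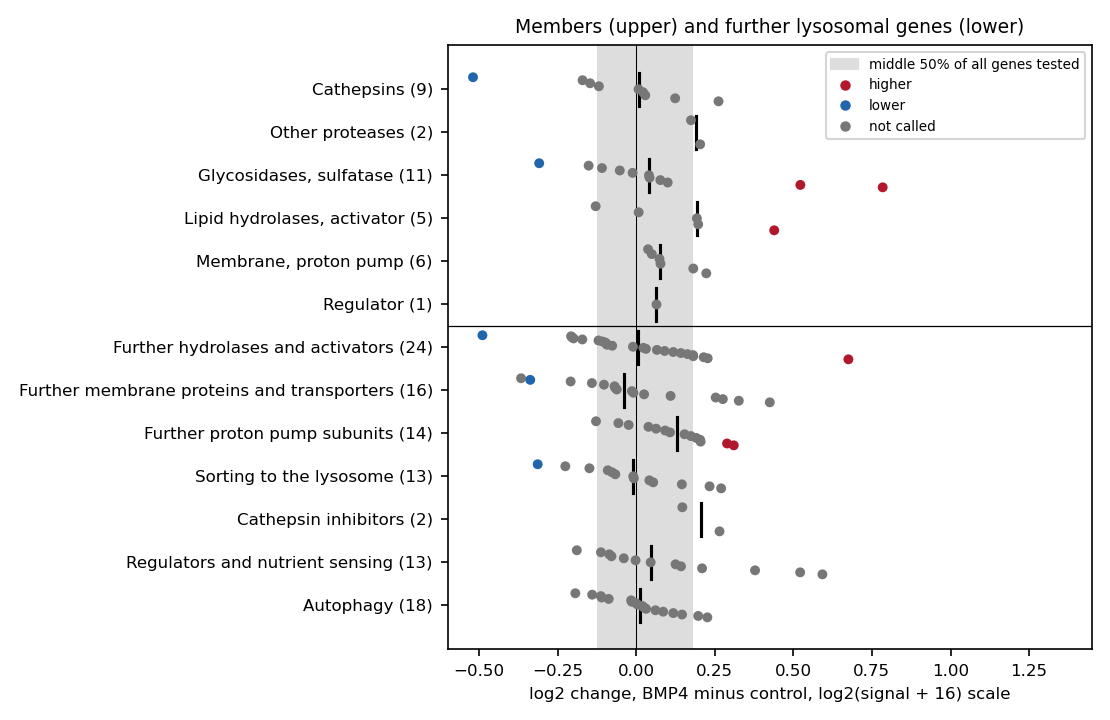
Log2 change (horizontal axis, BMP4 minus control) of each tested gene by list, members in the upper part and further lysosomal genes in the lower part, with the number tested in brackets; black bars are list medians and the band is the middle 50% of all genes tested. The medians lie between -0.04 and 0.21, and single enzymes, among them Gla, Ctse, Ctso and Arsb, stand away from them.

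The scale of the 6 arrays and the identity of the cells were checked. The 2% trimmed mean signal was 150 on each, and median signals were 37.6 to 42.6 with BMP4 and 35.2 to 37.3 without. Markers of mesenchymal cells were above background on all arrays for 9 of 9 genes, with signals summed over each gene's brightest probe set of 42045 to 51642 without and 45922 to 53595 with BMP4. One of the 9, the growth factor receptor Pdgfra, was lower on all 3 of its probe sets, with means of 3392 and 1815 on the brightest (log2 -0.90, limma adjusted p = 6.3e-05). A dimmer probe set of Prrx1 (-0.49, limma adjusted p = 0.0014) and of Col3a1 (-0.45, 0.0352) was also lower. The brightest of these genes did not pass (-0.18 and -0.01, limma adjusted p = 0.209 and 0.976). Of 12 markers of macrophages, cells rich in cathepsins, 4 were not above background on any array (Ptprc, Itgam, Tyrobp and Aif1). Another 6 were above it on all arrays (Cd68, Adgre1, Csf1r, Cd14, Laptm5 and Spi1). Of 8 macrophage markers tested 0 were called by limma, beside 10.7% of all genes tested, and 1, Lyz2, had an unadjusted p under 0.05. The sums over the 12 were 587 to 607 without and 621 to 778 with BMP4. Of 7 osteoclast markers 4, including Acp5 and Calcr, were not above background on any array, and sums were 120 to 142 without and 186 to 190 with BMP4. Itgb3, an integrin subunit, read 5.5, 14.8 and 8.3 without BMP4, all under background, and 48.6, 45.7 and 60.6 with it. It was called higher (limma adjusted p = 0.00155), but entered the test only through its BMP4 arrays. Of 5 endothelial markers 2 were not above background, with sums of 205 to 215 and 120 to 192, and Tek, an angiopoietin receptor, was lower (log2 -0.69, limma adjusted p = 0.0167). Of 5 epithelial markers 2 were not above background, with sums of 445 to 542 and 333 to 568. Adipocyte markers, 5 of 7 with a probe set, summed to 420 to 449 without and 1028 to 1173 with BMP4, and Lep was not above background. Fabp4, Cebpa and Pparg were higher on their brightest probe sets (log2 1.97, 1.01 and 0.70, limma adjusted p = 7.2e-07, 0.000188 and 0.000402). Adipoq had means of 16.8 without and 88.8 with BMP4, and entered the test only through its BMP4 arrays. The part of these differences in the changes of lysosomal genes was not tested.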

How the data were processed

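Signals of 6 single-colour arrays were used, 3 BMP4 and 3 control samples, grouped by their titles. The deposited values are linear signal intensities made with GCOS 1.3, per the submitters' processing notes; the sources used here give no scaling or background settings. Equal trimmed means point to global scaling, which would hide a shift shared by most transcripts, so signals were not scaled again. No detection calls or counts come with the table, so depth is unknown and the number of arrays limits precision. Gene symbols came from the platform annotation, and probe sets with several symbols name no member.

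Leaving out 64 control probe sets, signals were put on the log2(signal + 16) scale, which understates changes of dim genes. Probe sets with a mean above the 40th percentile (a signal of 23.5) went into a two-sided limma test (version 3.58.1, R 4.3.3, eBayes with a trend on intensity), and p-values were Benjamini-Hochberg adjusted over all 27022. The test was tried first on simulated data. A gene was represented by its brightest tested probe set. Every member is named, and of each further list the up to 3 called genes with the largest change, or that of smallest p; further tested probe sets are given for each member, and for further genes where one passed or the named gene has one. The members and lists were chosen with earlier results of these data known. The spread behind each p-value is that between these samples and may be technical. No coordinates of probe sets are given, since no genome build is named for them; promoter windows are from RefSeq, GRCm38.p6. Alternatives were other pseudocounts, filters, normalizations and eBayes settings, array weights, a replicate block, the mean of a gene's probe sets and leaving out each array.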

Additional observations from a re-analysis of the deposited data

How the results depend on the processing

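Gla and Ctso passed under all 18 alternatives, Lipa under 16, Ids under 11 and Idua under 9. The count of 2464 called probe sets became 1422 without the intensity trend and 1622 to 1996 when 1 array was left out. When 1 array was left out, 1 to 2 members were lower, 0 to 1 cathepsins higher, 1 to 2 glycosidase and sulfatase genes higher and 0 to 1 lower, and 1 to 3 further lysosomal genes higher and 1 to 3 lower. Without the trend 1 member was higher (Gla) and 1 lower (Ctso), with 1 glycosidase higher and 0 lower, 0 lipid genes higher, and 1 further gene higher and 1 lower. With median centring 1 member was higher, 1 of the glycosidases, 0 lipid genes and 1 further gene, and the share of called probe sets that were higher was 25.1% against 46.1%; the median over all probe sets was -0.07 against 0.03. Without the filter 1 member was lower, and 1 glycosidase was higher and 0 lower. Cathepsins counted 1 higher (Ctsa) with the 60th percentile filter, array weights, quantile normalization, cyclic loess and the mean over probe sets, and 2 lower (Ctso and Ctsb) with the last 3. Over that mean 1 membrane gene was higher (Scarb2), and 1 glycosidase was higher and 0 lower. Further genes higher numbered 5 with a pseudocount of 64, array weights or the mean over probe sets, 6 with quantile normalization or cyclic loess, and 8 with the 60th percentile filter.

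The replicate block gave 2090 called probe sets and the same 5 called members, and lost the calls of Atp6v1d (0.0717) and of the dimmest tested Ctsb probe set (0.0752). Deviations of same-numbered samples correlated at 0.010, -0.003 and -0.072, and no BMP4 sample correlated best with the control of its own number. No pairing by number was seen, but with so few arrays this check could not exclude weak pairing.

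Members that did not pass in either setting changed sign as follows. With median centring they were Ctsh (-0.087), Ctsk (-0.066), Ctsz (-0.073), Gusb (-0.018), Man2b1 (-0.054), Naglu (-0.052), Psap (-0.087), Lamp2 (-0.017), Mcoln1 (-0.057), Atp6v0d1 (-0.021), Atp6ap1 (-0.045) and Tfeb (-0.032). With quantile normalization and cyclic loess they were Ctsh (-0.018 and -0.021), Ctsk (-0.048 and -0.057), Ctsz (-0.033 and -0.029), Glb1 (0.0097 and 0.013) and Psap (-0.057 and -0.056). With array weights they were Ctsh (-0.013), Ctsk (-0.051) and Glb1 (0.0052), with a pseudocount of 1 Ctsk (-0.0024), and over the mean of probe sets Ctsf (0.24), Smpd1 (0.045) and Psap (-0.035). Leaving out 1 array gave ranges across 0 for Ctsh (-0.035 to 0.043), Ctsk (-0.27 to 0.40), Ctsz (-0.019 to 0.051), Gaa (-0.11 to 0.038), Glb1 (-0.055 to 0.040), Man2b1 (-0.033 to 0.11), Psap (-0.090 to 0.080) and Mcoln1 (-0.011 to 0.075). Causes were not tested.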
